A study of Mus musculus with 2 samples.

Results

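The genes described here are 9 histone acetyltransferase genes other than Kat8: Kat5, Kat6a, Kat6b and Kat7 of the MYST family, Ep300 and Crebbp, Kat2a and Kat2b of the GCN5 family, and Hat1. They were chosen by name from the mm10 annotation, 9 of 21887 protein-coding genes, and all peaks from 10 kb before to 10 kb after each gene were taken from both deposited peak lists. The lists come from CUT&Tag, in which an antibody against KAT8 directs a transposase to cut and tag nearby DNA. The cells were wild-type macrophages derived from mouse bone marrow in culture with M-CSF (20 ng/ml). They were left without stimulation (untreated, 1 library) or given R848, which activates the Toll-like receptor TLR7, at 100 ng/ml for 2 h (1 library). With 1 library per group there is no replicate, and no p-value is given for any difference. Each peak list is taken as that of its labelled library, although the sources do not say whether the untreated library had a role in the R848 peak calls.

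The untreated list holds 52001 peaks and the R848 list 44772, with a median width of 281 bp in each. A peak's fold is the authors' ratio of its signal to the local background, and q is its p-value adjusted for multiple testing. Both lists include weak peaks: the lowest −log10 p is 2.01 in each, and a q of 0.05 or less was reached by 36.3% (untreated) and 41.1% (R848) of peaks. The files give no read totals. The number of overlapping fragments at each summit, the pileup, was recovered from the fold and the p-value, with a lowest background of 3.37 fragments in the untreated and 2.62 in the R848 library. The R848 library is the shallower by this measure, so folds from both lists are given side by side and measure no change. Among 8 macrophage markers, 4 had an untreated peak and 3 an R848 peak within 1000 bp of a gene end, with Cebpa, Cebpb and Cd68 in both lists. The other 5 markers, Spi1, Csf1r, Adgre1, Itgam and Lyz2, lacked an R848 peak there. R848 peaks were also found at 2 of 6 lymphoid markers, Zap70 and Cd3d, while 4 granulocyte and 4 stromal markers had none. Over all protein-coding genes, 28.8% had an untreated and 24.4% an R848 peak in that window. The marker lists are too short to tell the cell type from these counts. A peak marks where DNA was cut and does not measure expression, and since no control library was analysed here, KAT8 binding and cutting of accessible DNA cannot be told apart.

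Histone acetyltransferases transfer an acetyl group from acetyl-CoA to lysines of histones and other proteins, and fall into families by the fold of their catalytic domain. MYST enzymes, to which KAT8 itself belongs, work in multi-subunit complexes. TIP60 (Kat5) acts in DNA repair and transcription, MOZ (Kat6a) and MORF (Kat6b) acetylate histone H3 with BRPF scaffolds, and HBO1 (Kat7) acts with BRPF or JADE scaffolds. p300 (Ep300) and CBP (Crebbp) are coactivators that sequence-specific factors, NF-kB among them, bring to enhancers and promoters of inflammatory genes in macrophages. GCN5 (Kat2a) and PCAF (Kat2b) are alternative catalytic subunits of SAGA and ATAC, and HAT1 acetylates newly made histone H4.

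Sequences just before the gene start are shown for 4 members that differ in what the lists hold there. Kat7 had a peak of moderate strength in both lists, Hat1 a weak one in both, Ep300 an untreated one alone, and Kat2a none in either. Each is the 250 bases before the start as RefSeq places it on GRCm38.p6 (mm10), 5′ to 3′ on the strand of the gene. Capitals mark matches to the short motifs listed further on.
Kat7: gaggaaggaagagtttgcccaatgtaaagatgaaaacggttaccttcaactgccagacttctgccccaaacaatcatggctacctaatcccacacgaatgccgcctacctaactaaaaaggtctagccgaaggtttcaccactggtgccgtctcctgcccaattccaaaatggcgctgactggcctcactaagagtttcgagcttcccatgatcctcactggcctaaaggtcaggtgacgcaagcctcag
Ep300: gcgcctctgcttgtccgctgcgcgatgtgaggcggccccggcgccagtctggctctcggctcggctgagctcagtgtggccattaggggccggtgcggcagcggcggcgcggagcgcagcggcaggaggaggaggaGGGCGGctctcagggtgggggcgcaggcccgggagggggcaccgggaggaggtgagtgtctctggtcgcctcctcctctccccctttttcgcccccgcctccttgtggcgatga
Hat1: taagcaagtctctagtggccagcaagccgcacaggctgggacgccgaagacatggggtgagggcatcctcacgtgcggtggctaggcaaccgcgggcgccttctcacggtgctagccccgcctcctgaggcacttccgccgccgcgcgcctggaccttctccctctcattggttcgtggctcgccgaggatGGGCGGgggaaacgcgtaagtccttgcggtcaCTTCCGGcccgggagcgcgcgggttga
Kat2a: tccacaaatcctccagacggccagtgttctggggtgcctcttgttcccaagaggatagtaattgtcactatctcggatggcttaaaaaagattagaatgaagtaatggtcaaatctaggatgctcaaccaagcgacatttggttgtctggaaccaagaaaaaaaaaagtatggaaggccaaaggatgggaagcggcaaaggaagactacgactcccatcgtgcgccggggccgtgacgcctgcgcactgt
The Kat7 sequence lies at chr11:95310247-95310496 on the minus strand, and 238 of its bases were under the untreated peak and 250 under the R848 peak. The Ep300 sequence (chr15:81585964-81586213, plus strand) had 157 bases under the untreated peak. The Hat1 sequence (chr2:71389010-71389259, plus strand) had 218 under the untreated and 157 under the R848 peak. The Kat2a sequence (chr11:100712468-100712717, minus strand) had 0 under a peak of either list.

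Peaks lay at or near 7 of the 9 genes in each list, but not at the same 7. Kat5, Kat6b, Kat7 and Hat1 had a peak near their start in both lists, as had Kat6a at its lower-coordinate end, Ep300 and Crebbp had an untreated one there but no R848 one, and Kat2a and Kat2b had none there. Within 10 kb of the gene or inside it, the untreated list had 10 peaks at 7 genes and the R848 list 9 peaks at 7 genes, where 64% and 58.7% of all protein-coding genes had a peak. Of these peaks 9 untreated and 6 R848 peaks had their summit nearer to the member than to another protein-coding gene. A q of 0.05 or less was reached by 6 of the 10 untreated and 5 of the 9 R848 peaks. Counting only a gene's nearest peaks, 7 of 9 members had an untreated and 5 of 9 an R848 peak of their own, against 53.6% and 48.7% of all genes. Longer genes have wider windows. Of the 2 members under 20 kb, 1 had an untreated peak and 2 an R848 peak (53.6% and 48.2% of all genes of that length). Of the 4 members of 20 to 100 kb, 4 and 3 had one (71% and 65.7%), and of the 3 longer ones 2 and 2 had one (92.3% and 88.4%).

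The start of the gene is a narrower window. The RefSeq table has a start for 8 members, Kat6a being the exception. Within 1000 bp of a tabled start, 6 of 8 had an untreated peak and 4 of 8 an R848 peak, against 28.7% and 24.1% of the protein-coding genes with a tabled start. Kat5, Kat6b, Kat7 and Hat1 had one in both lists (4 of 8, against 17.9% of genes). At Ep300 and Crebbp it was an untreated peak alone (2 of 8, against 10.8%), and an R848 peak alone was found at 0 of 8 (6.25%). With windows of 1000 bp around both ends of the annotated gene instead, 6 of 9 members had an untreated and 3 of 9 an R848 peak (28.8% and 24.4% of all genes). That window misses Kat5 in both lists and Kat6b in the R848 list, because their annotated genes begin upstream of the tabled starts.

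**Figure D1:**
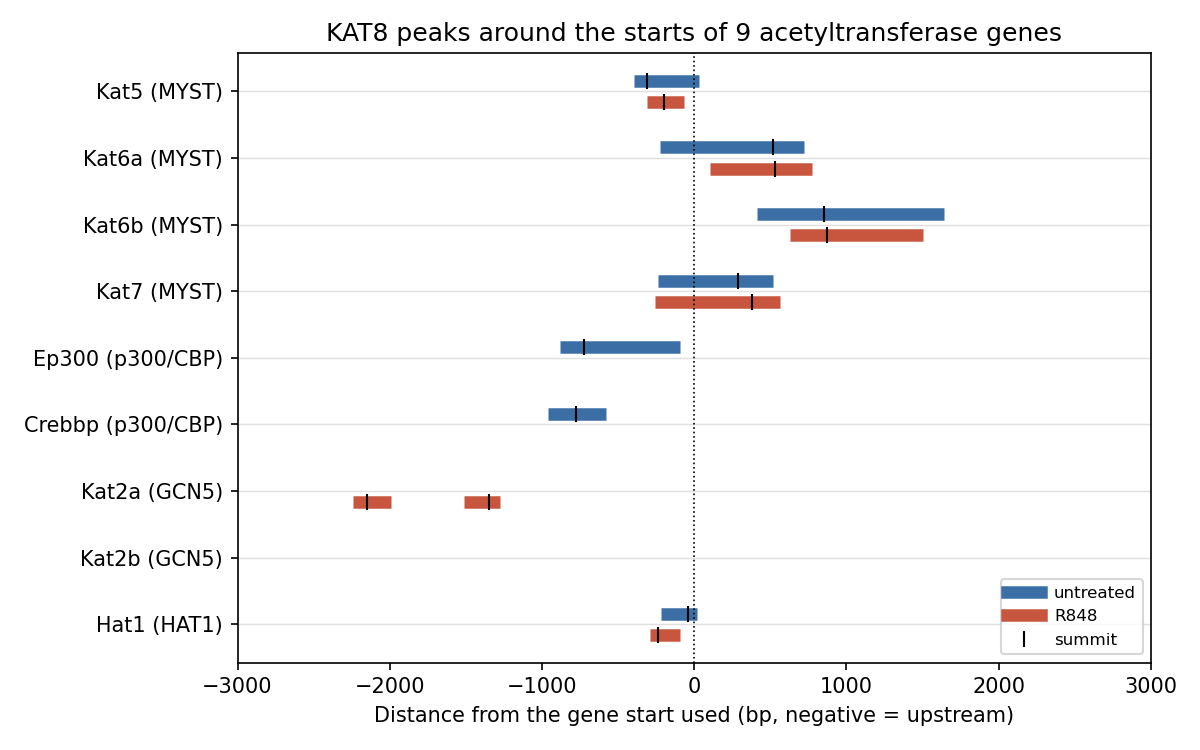
Peaks within 3000 bp of the gene start, 1 row per gene, with the family in brackets; the x axis is the distance from the nearest tabled start in bp, oriented with the gene (for Kat6a, distance from the lower-coordinate end of the gene), bars are peak intervals and ticks their summits. The 4 MYST genes and Hat1 have overlapping bars in both lists, and Ep300 and Crebbp have an untreated bar only, upstream of the start. The Kat2a bars overlap the ends of the neighbouring gene Hspb9, with their summits just outside it.

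Kat6b, which encodes the MORF acetyltransferase, had the strongest peak of the 9 genes in both lists. The gene lies on chromosome 14 from 21499216 to 21672478 on the plus strand. The untreated peak spans chromosome 14, 21500200 to 21501427 (1228 bp), with a fold of 7.29, a −log10 p of 21.8 and a −log10 q of 17.6. The R848 peak spans 21500417 to 21501288 (872 bp), with a fold of 6.86, a −log10 p of 17.1 and a −log10 q of 13.0. The R848 interval lay wholly inside the untreated one, and the summits were 17 bp apart, 853 and 870 bp downstream of the nearest tabled start. Both intervals began past the start, at 415 and 632 bp downstream of it, so the 250 bases before the start were under no peak. The folds were at percentiles 98.9 and 98.5 of all peaks of their lists, and at 96.3 and 94.9 among the genes with a peak at an end or start. Summit pileups were 35 fragments (exact 95% Poisson interval 24.4 to 48.7) and 27 (17.8 to 39.3).

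Each list also held 1 weak peak deep inside Kat6b with no counterpart in the other. The untreated one was at 21654187 to 21654386 (200 bp, fold 2.52, −log10 q 0.462, 10 fragments), and the R848 one at 21594541 to 21594752 (212 bp, fold 3.32, −log10 q 1.51, 11 fragments). Their summits were 154462 and 94812 bp downstream of the start. Of all untreated peaks with a −log10 p between 3 and 5, as both of these have, 21.2% overlapped an R848 peak, and 26.6% of such R848 peaks overlapped an untreated one.

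Kat6a, which encodes MOZ, had 1 peak in each list at the lower-coordinate end of the gene (chromosome 8, 22859442 to 22943259). The untreated peak spans 22859219 to 22860163 (945 bp, fold 4.81, −log10 q 6.25) and the R848 peak 22859549 to 22860214 (666 bp, fold 5.25, −log10 q 6.35). They shared 615 bp, and the summits were 12 bp apart, the closest pair among the members. Their folds were at percentiles 96.3 and 96.7 of their lists, with pileups of 20 (12.2 to 30.9) and 18 (10.7 to 28.4) fragments. The interval also overlaps the end of Gm46036, an annotated long non-coding RNA gene that reaches 22860439, so the peak cannot be assigned to Kat6a alone.

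Kat7, which encodes HBO1, the MYST enzyme linked to replication licensing, had a peak across its start in both lists. The gene lies on chromosome 11 from 95271853 to 95310246 on the minus strand. The untreated peak spans 95309726 to 95310484 (759 bp, fold 4.35, −log10 q 4.797) and the R848 peak 95309682 to 95310501 (820 bp, fold 3.87, −log10 q 2.69). The untreated interval lay wholly inside the R848 one, the reverse of the nesting at Kat6b. Summits were 287 and 379 bp downstream of the start, 92 bp apart, with 18 (10.7 to 28.4) and 13 (6.92 to 22.2) fragments. The start is 170 bp from that of Gm11520, a long non-coding RNA gene on the opposite strand, which both peaks also overlap.

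Kat5, which encodes TIP60, had the weakest peak of the 3 MYST genes with a tabled start, in both lists. The gene lies on chromosome 19 from 5603014 to 5611556 on the minus strand. The untreated peak spans 5610060 to 5610488 (429 bp, fold 2.29, −log10 q 0.163) and the R848 peak 5610160 to 5610407 (248 bp, fold 2.76, −log10 q 0.581). Each held 9 fragments (4.12 to 17.1), close to the lowest pileup called in its list, 8 and 7. Neither reached a q of 0.05, and with pileups scaled to the R848 background the untreated peak fell below the calling threshold. The R848 interval lay wholly inside the untreated one, and the summits were 310 and 197 bp upstream of the nearest tabled start. Of all untreated start peaks with a −log10 p between 2 and 3, 22.6% overlapped an R848 peak, and the Kat5 peak was one of these 67 of 296.

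Ep300 had 2 untreated peaks and 0 R848 peaks. The gene, which encodes p300, lies on chromosome 15 from 81586209 to 81652077 on the plus strand. The stronger peak spans 81585330 to 81586120 (791 bp) and ends 94 bp before the tabled start, with its summit 723 bp upstream. Its fold was 3.89, at percentile 91.1 of the list, with a −log10 p of 6.96, a −log10 q of 3.47 and 16 fragments (9.15 to 26.0). The weaker one lay inside the gene, at 81635325 to 81635568 (244 bp, fold 2.75, −log10 q 0.831, 11 fragments).

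Crebbp, which encodes CBP, had an untreated peak upstream of its start as well. The gene lies on chromosome 16 from 4081334 to 4213957 on the minus strand. The peak spans 4213981 to 4214364 (384 bp, fold 3.43, −log10 q 2.28, 14 fragments, 7.65 to 23.5), with its summit 776 bp upstream of the tabled start. Measured from the tabled starts, both p300/CBP start peaks had summits farther before the start (723 and 776 bp) than those of Kat5 and Hat1 (41 to 310 bp). Those of Kat6b and Kat7 lay after it. This order depends on the start used, as the annotated Crebbp gene begins upstream of its tabled start. From the annotated ends, the summit was 223 bp outside Crebbp and 718 bp outside Ep300. The Kat5 summits were inside the gene, 1152 and 1265 bp from its end. The other Crebbp peak was shared by both lists and lay past the far end of the gene, at the start of Trap1, which encodes a mitochondrial chaperone. It spans 4077588 to 4077998 in the untreated list (fold 3.20, −log10 q 1.75) and 4077619 to 4078006 in the R848 list (fold 3.32, −log10 q 1.51). The summits were 201 and 25 bp from the end of Trap1, so the R848 list had no peak nearer to Crebbp than to a neighbour.

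At Ep300 and Crebbp the start peak was in the untreated list alone. Scaled by the ratio of the lowest backgrounds (0.777), the Ep300 pileup corresponds to 12.4 fragments at the R848 depth (7.11 to 20.2) and the Crebbp pileup to 10.9 (5.95 to 18.3), where the lowest pileup called was 7. The Crebbp interval reaches below that pileup and the Ep300 interval begins just above it. Of all untreated start peaks with a −log10 p between 5 and 10, as these have, 1032 of 1425 overlapped an R848 peak (72.4%, exact binomial interval 70.02 to 74.7). Ep300 and Crebbp were among the 393 that did not, and Kat7 among the 1032 that did. The share rose with strength, from 35.7% for a −log10 p between 3 and 5 to 96.4% between 10 and 30. Within the range of 5 to 10, Crebbp (5.57) and Ep300 (6.96) lay below Kat7 (8.45). The lists do not give the R848 signal where no peak was called, so the size of a difference at Ep300 and Crebbp was not measured.

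Kat2a and Kat2b, of the GCN5 family, had no peak inside the gene in either list. Kat2a lies on chromosome 11 from 100704746 to 100712485 on the minus strand, with 4 other genes within 10 kb. Its window held 2 weak R848 peaks, at 100713745 to 100713976 and 100714458 to 100714707, each with a fold of 2.76, a −log10 q of 0.581 and 9 fragments. Their summits were 1347 and 2152 bp upstream of the Kat2a start but 115 and 44 bp from the ends of Hspb9, which encodes a small heat shock protein. Kat2b, which lies on chromosome 17 from 53566774 to 53672721 and is 105948 bp long, had no peak in its window in either list. That was the case for 26.1% of all protein-coding genes and for 108 of 2429 (4.45%) of those over 100 kb.

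Hat1 had a weak peak at its start in both lists. The gene lies on chromosome 2 from 71389260 to 71441622 on the plus strand. The untreated peak spans 71389042 to 71389277 (236 bp, fold 2.52, −log10 q 0.462, 10 fragments, 4.795 to 18.4), and the R848 peak 71388967 to 71389166 (200 bp, fold 2.76, −log10 q 0.581, 9 fragments, 4.12 to 17.1). They shared 125 bp. The summits, 41 and 239 bp upstream of the start, were 198 bp apart, the widest gap among the shared member peaks.

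**Figure D2:**
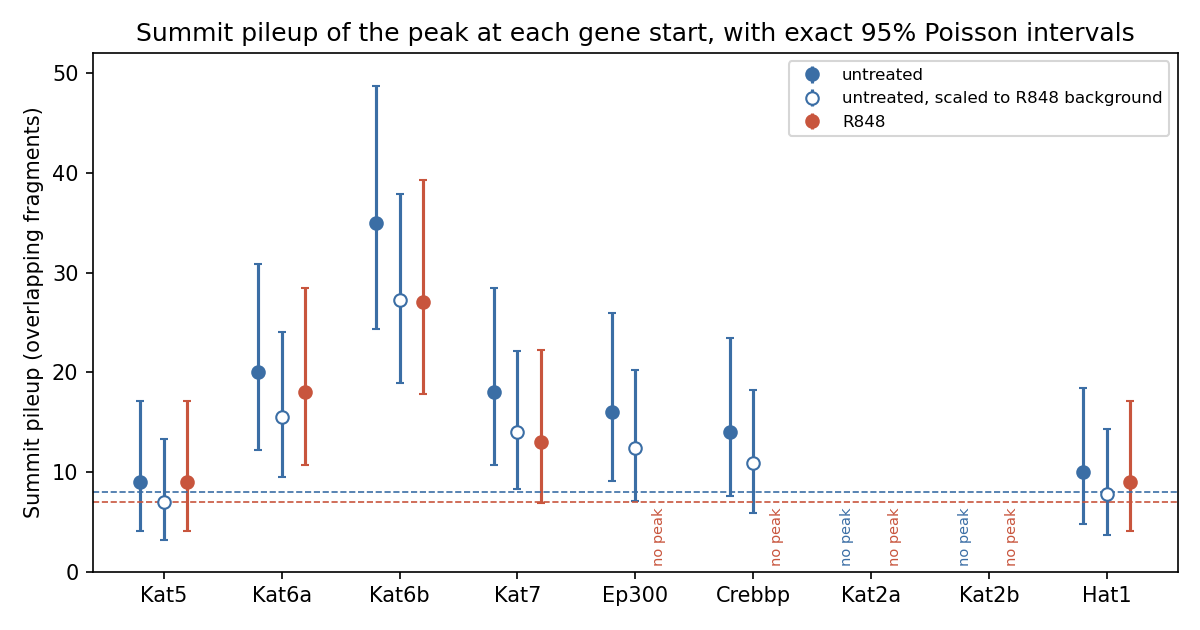
Summit pileup in overlapping fragments of the peak at the start of each gene (for Kat6a, at its lower-coordinate end), with exact 95% Poisson intervals, in the untreated list (filled blue), the untreated list scaled to the R848 background (open blue) and the R848 list (red); dashed lines are the lowest pileups called, 8 and 7. Kat6b is highest in both libraries, and the scaled untreated and R848 intervals overlap at the 5 genes with a peak in both.

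At the 4 genes with a start peak in both lists and at the lower-coordinate end of Kat6a, the counting intervals of the scaled untreated and the R848 pileup overlapped. The scaled untreated pileup and the R848 pileup were 27.2 and 27 fragments at Kat6b and 15.5 and 18 at Kat6a. They were 13.99 and 13 at Kat7, 6.996 and 9 at Kat5, and 7.77 and 9 at Hat1. The order of the untreated pileups (Kat6b, Kat6a, Kat7, Hat1, Kat5) was the R848 order too, with Hat1 and Kat5 tied there. The unscaled intervals of Kat6b and Kat6a overlapped in each list. They were 24.4 to 48.7 and 12.2 to 30.9 fragments untreated, and 17.8 to 39.3 and 10.7 to 28.4 with R848. The local background was also higher at Kat6b (3.94 untreated and 3.08 R848) than at Kat6a (3.37 and 2.62). Counting intervals take fragments as independent and cover counting error only, not the spread between cultures.

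By family, peaks per 100 kb of window overlapped in their counting intervals. The 4 MYST windows (384 kb in all) held 5 peaks in each list, 1.30 per 100 kb (0.423 to 3.04). The p300/CBP windows (238 kb) held 4 untreated peaks (1.68, 0.457 to 4.29) and 1 R848 peak (0.419, 0.0106 to 2.34). The GCN5 windows (154 kb) held 0 untreated peaks, which allows up to 2.40 per 100 kb, and 2 R848 peaks (1.30, 0.158 to 4.70). These counts include peaks nearer to a neighbour. Both GCN5 R848 peaks lay nearest to Hspb9, and the p300/CBP R848 peak and 1 of the 4 untreated ones lay nearest to Trap1. Hat1 (72.4 kb) held 1 in each list (1.38, 0.0350 to 7.70). The medians over all protein-coding genes were 1.96 untreated and 1.47 R848 peaks per 100 kb. These medians take 1 rate per gene, whereas the family rates pool windows. The means over protein-coding genes were 2.22 and 1.93 per 100 kb of window, and the rates over the genome 1.91 and 1.64.

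Of the member peaks, 6 of 10 in the untreated list (60%, exact binomial interval 26.2 to 87.8) and 6 of 9 in the R848 list (66.7%, 29.9 to 92.5) overlapped a peak of the other list. Over all peaks 31% and 35.8% did, which lies inside the members' interval in each list. The shared pairs were the start peaks of Kat5, Kat6b, Kat7 and Hat1, the peak at the lower-coordinate end of Kat6a and the Trap1 peak. Of the member peaks with a −log10 p between 10 and 30, 2 of 2 in each list were shared, as were 94.3% and 97.3% of all such peaks. Summits of the shared pairs were 12 to 198 bp apart, against a median of 98 bp over all shared untreated peaks (quartiles 39 and 197).

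The 10 kb limit left out a few peaks close by. Of the peaks inside the limit but outside a member, the farthest was the shared Trap1 peak, with summits 3695 and 3519 bp from Crebbp. The nearest beyond it was an R848 peak 12378 bp from Kat7 on the side of Tac4 (fold 3.76). Kat2b had peaks of both lists 16471 and 16585 bp away, inside Sgo1 (fold 3.89 and 3.04). The nearest peaks below Hat1 were strong, at Slc25a12, 21358 and 21307 bp away (fold 8.01 and 7.18), as was the nearest R848 peak above Crebbp, 87073 bp away on the side of Adcy9 (fold 7.46, against 3.89 for the untreated peak there).

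GC content before the start varied widely among the members, also among those with a start peak. Over 21263 tabled starts of protein-coding genes the 250 bases before the start had a median GC content of 55.6%. The members with the lowest values were Kat2b (40.8% and 48.4% at its 2 starts) and Kat2a (48.8%), which had no start peak. Kat7 was close to them at 50.8% and had a peak in both lists. Crebbp (84.0%, percentile 99.8), Kat6b (78.8% and 79.6%) and Ep300 (73.2%) were GC-rich, and Hat1 had 67.6% and Kat5 55.2% and 71.6%. No peak covered the 250 bases before the Crebbp start, either Kat6b start or the Kat5 start of 71.6%. The Kat5 sequence under the peaks was that of 55.2%, with 250 bases under the untreated and 185 under the R848 peak. With genes placed by their highest GC content, 8.19% of those under 50% had an untreated start peak and 6.45% an R848 peak, and 54.7% and 48.0% of those of 70% or more. The part of GC content in the presence of a peak at the members was not tested.

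Motifs were searched by exact letters on both strands of these 250 bases. GGGCGG, the GC box, was found 8 times before each Kat6b start, whose windows overlap, and 3 times at the Kat5 start of 71.6% GC. It was found 2 times at Crebbp and once each at Ep300 and Hat1, and 42.6% of all promoters hold it. The GC boxes of Kat6b, Kat5 and Crebbp were under no peak. Hat1 also held the ETS core CCGGAAG, present in 8.98% of promoters, which shares no base with its GC box. The AP-1 letters TGANTCA occurred at 1 Kat2b start and in 6.13% of promoters. Kat7 and Kat2a held none of the motifs searched. The other motifs, found before no member start, were TATAAA (11.6% of promoters), the CRE palindrome TGACGTCA (1.92%), and the longer NRF1 (1.07%), CGCG palindrome (0.564%) and YY1 (0.254%) motifs.

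Genes for the partner subunits of these enzymes had gene-end peaks in about equal numbers in both lists. Of 45 such genes, 25 (55.6%, 40.0 to 70.4) had an untreated peak and 23 (51.1%, 35.8 to 66.3) an R848 peak within 1000 bp of either gene end, where 28.8% and 24.4% of all genes had one. Both lists had a peak at 20 of them, where 17.3% of all genes had one in both. The highest-fold peaks of the 2 lists overlapped at 19 of these, and at Mbtd1 a weaker untreated peak overlapped the R848 one. A peak in 1 list alone was found at 5 partners (untreated, against 11.5% of all genes) and 3 (R848, against 7.11%). The median fold among partners with a gene-end peak was 3.89 and 4.42. Among all genes with a peak at an end or a tabled start, a wider set of windows, it was 3.20 and 3.32.

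The TIP60/NuA4 complex had 9 of 15 subunit genes with a peak in each list. Ep400, its chromatin remodelling ATPase, had a fold of 7.55 in the untreated and 4.97 in the R848 list, and Actl6a, an actin-related subunit, had 5.95 and 4.97. Trrap, the scaffold that TIP60 and SAGA share, had an untreated peak only (2.98), and Yeats4, a histone acyl-lysine reader, an R848 peak only (2.76). For the MOZ/MORF and HBO1 complexes 3 of 9 genes had a peak, the same 3 in both lists. Brpf1, the scaffold of MOZ and MORF, had the highest fold of the 45 genes in both lists, 10.7 and 9.86, with 47 and 41 fragments (chromosome 6, 113306389 to 113306978 and 113306341 to 113307053). Ing5, a reader of methylated histone H3, had 4.81 and 4.14.

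SAGA and ATAC, the complexes of GCN5 and PCAF, had 12 of 19 subunit genes with an untreated peak and 10 with an R848 peak, although Kat2a and Kat2b had none. Usp22, the deubiquitinase of SAGA, had folds of 8.41 and 9.67, and Taf5l, a core subunit of SAGA, had 8.28 and 8.68. Yeats2, a histone reader of ATAC, had an untreated peak only (3.20, −log10 q 1.75) and Taf6l, a core subunit of SAGA, an R848 peak only (3.32, −log10 q 1.51). Of the 2 HAT1 partners, Rbbp4, a histone chaperone, had a peak in both lists (4.81 and 3.59) and Rbbp7, on the X chromosome, in neither.

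**Figure D3:**
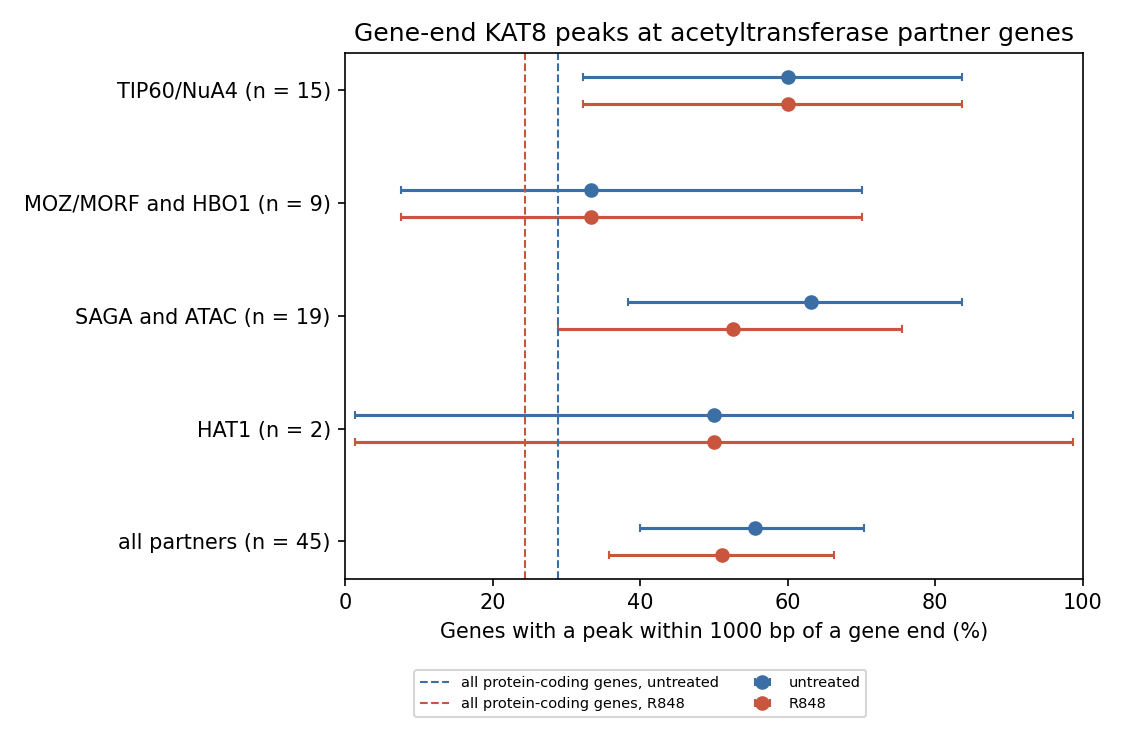
Share of partner genes with a peak within 1000 bp of a gene end, per complex and list, with exact 95% binomial intervals; dashed lines are the shares of all protein-coding genes, 28.8% untreated and 24.4% R848. The points of all complexes lie to the right of the dashed lines, but the intervals of MOZ/MORF and HBO1 (7.49 to 70.1) and of HAT1 cover both lines.

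**Figure D4:**
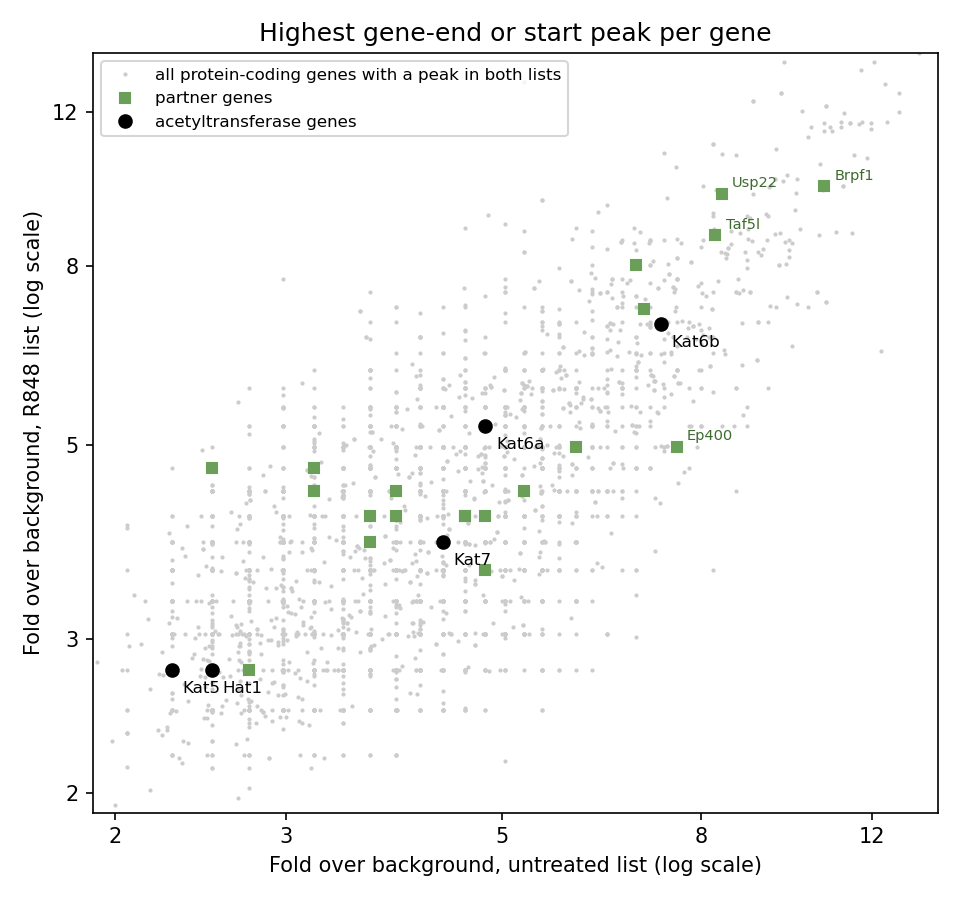
Highest fold over background of a gene-end or start peak in the untreated list (x, log scale) and the R848 list (y, log scale), for 4137 protein-coding genes with a peak in both lists (grey; 19 lie outside the axes), partner genes (green) and the 5 acetyltransferase genes with a peak in both (black). For the partner genes only gene-end peaks were used. Kat6b (7.29 and 6.86) lies among the higher partners and below Brpf1 (10.7 and 9.86), and Kat5 and Hat1 lie at the low end.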

How the data were processed

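KAT8 CUT&Tag peak lists of 2 libraries, untreated and R848, were grouped by the treatment label. Peak names begin MOF0h2h in the R848 file and MOF0h in the untreated file, and whether the untreated library had a role in the R848 calls is not given in the sources used here. Tools named without role or order in the submitters' processing notes are MACS2 2.2.7.1, Bowtie 0.12.8 and DiffBind, with build mm10; use of a control in peak calling is not stated there. Per library the authors deposited 1 list with, for every peak, its score, its fold (a ratio to background), −log10 p, −log10 q and summit offset. The deposited score was 10 times −log10 p, to within 1.

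Peaks overlapping a gene or its 10 kb flanks by 1 bp were taken, and overlap of 1 bp counted as shared (bedtools 2.31.1 gave the same counts). Whole summit pileups were solved from fold and p and came out whole within 0.05 for 99.8% of peaks in each list; extreme peaks were left out. Genes and starts came from RefSeq tables of GRCm38.p6, which matched 9 of 9 members and 45 of 45 partners; Kat6a is not in the start table. Exons were not used. Intervals are exact, at 95%, and cover counting error only. No test was possible with 1 library per group. The code (Python 3.11.15, SciPy 1.17.1) was tested on simulated data.

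Members and lists were chosen with earlier results of these data known. All members are named; of each complex, up to 2 partners with peaks in both lists and 1 per list only, by fold. The genes most like a member are not reported here.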

Additional observations from a re-analysis of the deposited data

How the results depend on the processing

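Of 90 values recomputed under other settings, 60 stayed within 1.5 times the reported count or inside the interval of the reported share or rate, and 30 did not. With only peaks of −log10 q of 5 or more, 2 members had a peak and 2 member peaks were left in each list (Kat6a and Kat6b), 100% of them shared. Members with a gene-end peak then numbered 2 and 1, members with a start peak 1 and 1, partners with a gene-end peak 12 and 7, and the p300/CBP and HAT1 rates were 0 in both lists and the GCN5 rate 0 in the R848 list. With q of 0.05 or less, 6 untreated and 5 R848 member peaks were left, 4 members had an R848 peak and 2 an R848 start peak. The HAT1 rate was then 0 in both lists and the GCN5 rate 0 in the R848 list. With gene bodies alone, 4 members had an R848 peak, 5 R848 peaks were left, and the R848 rates of p300/CBP, GCN5 and HAT1 were 0. With 3000 bp around gene ends, 6 members had an R848 peak, Kat2a among them through peaks nearer to Hspb9. Lists of equal length, stricter overlap, summits within 250 bp and, added after the data were seen, untreated pileups scaled to the R848 background moved none of the values they apply to past those limits, but the scaling removed the untreated Kat5 peak. Shares of all protein-coding genes under these other settings are not given here. The member and partner counts under them therefore cannot be set against the shares given earlier. No paired analysis was possible because each group has 1 library. Read totals and signal outside peaks were not used here, so the signal where a list has no peak is not known.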
